A study of Mus musculus with 2 samples.

Results

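Among 3182 cells of the E14.5 mouse dorsal telencephalon, 67 were GABAergic neurons that carried transcripts of Sp8, Prox1 or Nr2f2 and none of Lhx6. The cells were chosen by their own UMI counts of 12 genes, a UMI being the molecular tag that marks 1 captured transcript. A cell was taken when it had at least 3 UMIs of Gad1 and Gad2 together and at least 1 of Sp8, Prox1 and Nr2f2. It also had to have no UMI of Lhx6, Six3 or Isl1, at most 2 of Mki67 and Top2a, and at most 2 of Neurod2 and Neurod6. Barcodes with fewer than 1000 genes, or with over 10% of their UMIs from mitochondrial genes, had been set aside. These 12 genes are therefore described below and were not tested.

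The study dissected the dorsal telencephalon at embryonic day 14.5, dissociated it and profiled unsorted cells by droplet-based 3′ RNA sequencing. Both libraries, called replicate 2 and replicate 4 after their titles, have the genotype WT and come from control embryos of the EomesDot line, whereas the study's methods name C57BL/6J mice. Whether these controls carry a Cre or reporter allele, and whether a library is 1 embryo or a pool, is not stated. There was 1 group, so embryos of different genotypes or treatments were not compared. The comparisons are between kinds of cell within the same libraries.

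Cortical interneurons are born in the ventral telencephalon and reach the cortex by tangential migration. The medial ganglionic eminence (MGE) makes the Lhx6-expressing cells that become somatostatin and parvalbumin interneurons. The caudal ganglionic eminence (CGE) makes a later wave of cells that express Prox1, Nr2f2 (COUP-TFII), Sp8 and the RNA-editing family gene Adarb2, and that include the future VIP and many reelin interneurons. The dorsal part of the lateral ganglionic eminence (LGE) also uses Sp8, together with Meis2, Pax6, Etv1 and Tshz1, for neuroblasts of the olfactory bulb, and the rest of the LGE makes the projection neurons of the striatum.

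Replicate 2 gave 20 such cells of 1211 (1.65%, exact Clopper-Pearson 95% interval 1.01 to 2.54). Replicate 4 gave 47 of 1971 (2.38%, interval 1.76 to 3.16). The intervals overlap, and they cover counting error alone. For comparison, the same gate with Lhx6 in place of its absence (called Lhx6-positive cells here, with no condition on Sp8, Prox1 or Nr2f2) took 51 and 76 cells. A gate for Six3 or Isl1, transcription factors of striatal neurons, took 1 cell in replicate 2 and 64 in replicate 4. Excitatory neurons, gated by Neurod2 and Neurod6 without Gad1 or Gad2, numbered 655 and 952. The 67 members had a median of 14102 UMIs per cell in replicate 2 (range 5477 to 38688) and 11112 in replicate 4 (4161 to 24997), below the medians of 23396 and 14418 in the Lhx6-positive cells. The doublet caller marked 12 and 48 of the retained barcodes and no member. The libraries shared 3 barcodes, none of them a member.

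The marker genes that admitted the cells were distributed unequally over the libraries. Sp8 (chromosome 12, 118846288 to 118852578 in mm10), a zinc-finger factor of the dorsal LGE and CGE, had a UMI in 17 of 20 members of replicate 2 and in 20 of 47 of replicate 4. Prox1 (chromosome 1, 190118035 to 190170827), a homeodomain factor that CGE interneurons keep into adulthood, was found in 4 of 20 and 21 of 47. Nr2f2 (chromosome 7, 70351946 to 70366746), a nuclear receptor of the caudal eminence, was found in 6 of 20 and 41 of 47. Nr2f2 was not particular to the members, and its counts in Lhx6-positive and excitatory cells are given below. Sp8 was the sole marker of the 3 in 11 cells of replicate 2 (55% of its members) and in 1 cell of replicate 4 (2.13%). All 3 genes met in 9 cells of replicate 4 and in none of replicate 2. Levels in CPM are therefore given per library.

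**Figure D1:**
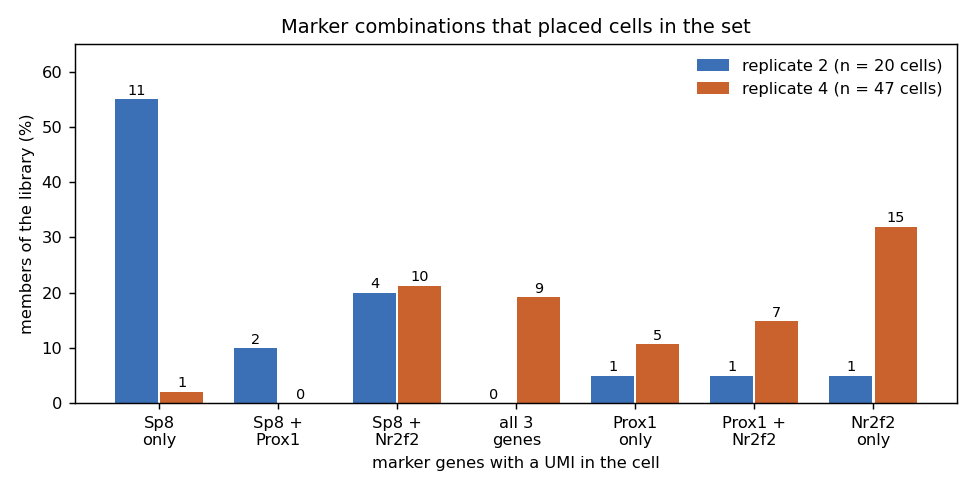
Percent of the members of each library (y axis) by the combination of Sp8, Prox1 and Nr2f2 with at least 1 UMI in the cell (x axis), with the number of cells above each bar. Of the 20 members of replicate 2, 11 had Sp8 only, against 1 of the 47 of replicate 4, where Nr2f2 only was most frequent with 15 cells.

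Levels are UMIs per 1e+06 UMIs of the summed cells (CPM). Gad2 (chromosome 2, 22621015 to 22693877), which makes GABA at synapses and is one of the rule's own genes, stood at 751 and 1093 CPM in the members and had a UMI in all 67 of them. The label was then checked against genes outside the rule. The vesicular GABA transporter Slc32a1 was at 95.4 and 75.9 CPM, against 0 and 0.0403 CPM in the excitatory cells. The homeobox gene Dlx1 was at 496 and 397 CPM (excitatory cells 0.179 and 0.282). Adarb2 (chromosome 13, 8202526 to 8768762) was at 5680 and 6844 CPM in the members, with a UMI in 18 of 20 and 36 of 47 cells. It was at 12.8 and 337 CPM in the Lhx6-positive cells, where 1 cell of replicate 4 held 272 of its UMIs, and at 33.9 and 45.2 CPM in the excitatory cells. Cells of at least 5000 UMIs were then thinned to 5000, to set depth equal. Cells below that depth, 3 members of replicate 4 among them, were left out. Adarb2 then had a UMI in 90% and 77.3% of members, in 4% and 12.3% of Lhx6-positive cells and in 7.33% and 6.50% of excitatory cells. The single Six3- or Isl1-positive cell of replicate 2 had no Adarb2 UMI, and the 64 of replicate 4 had 828 CPM, with a UMI in 25 of them. The Adarb2 levels of the members lay above those of the other 3 sets in both libraries, but the difference did not pass the test below against the Lhx6-positive cells (adjusted p = 0.0953) or the Six3- or Isl1-positive cells (log2 fold change 3.62, SE 1.28, adjusted p = 0.279). With the library as a block both passed, the latter at 4.54 (adjusted p = 0.00366). Against the Six3- or Isl1-positive cells 3 of 18 fits called it. All 13 genes of the GABAergic list, which holds Gad1 and Gad2 of the rule, had a UMI in the members of both libraries. The excitatory cells had been gated without Gad1 or Gad2, so their low Slc32a1 and Dlx1 follow in part from that gate. Adarb2 had a UMI in most members, without a call in the main fit.

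Cells just across the rule's limits give an idea of its edges. In replicate 4, 7 cells failed the rule by a single Lhx6 UMI, and their summed Adarb2 was 62.4 CPM against 6844 CPM in the members. A further 8 failed it by 1 UMI of Six3 or Isl1 and had 384 CPM of Adarb2. Cells that failed only for want of any Sp8, Prox1 or Nr2f2 UMI numbered 4 in replicate 2, with 9139 CPM of Adarb2, and 15 in replicate 4, with 1164 CPM. The members with exactly 1 UMI of the 3 markers numbered 3 and 8 and had 2448 and 955 CPM. When the rule was applied to a random 50% of each cell's UMIs it took 18 and 49 cells. The UMIs set aside held Lhx6 UMIs in 2 and 3 of these. With all gates set in this way, the UMIs set aside held Nr2f2 in 15 of 47 and 17 of 53 Lhx6-positive cells. The counts were 125 of 631 and 201 of 927 for excitatory cells, and 4 of 18 and 39 of 49 for members. Nr2f2 was at 130 and 830 CPM in these members, against 63.4 and 231 CPM in the Lhx6-positive cells. Sp8 had no UMI there in the Lhx6-positive cells, and Prox1 was found in 1 and 3 of them. Of the Lhx6-positive cells, 1 of 51 and 21 of 76 owed their place to exactly 1 Lhx6 UMI.

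The first comparison asked which genes separated these cells from the Lhx6-positive GABAergic neurons, the nearest other interneurons in the dissected tissue. Of 7 tested genes of the dorsal LGE and olfactory bulb list 4 were higher in the members, Meis2 and Pax6 among them, and 3 without a sum of a single cell described below. Of 10 tested genes of the MGE interneuron list 6 were lower, Nxph2 and Sst among them, and 4 without that sum. UMI sums of the 4 gated sets in each library were fitted together with edgeR's quasi-likelihood test, without the 12 genes of the rule. Of 10261 genes tested, 103 (1%) were higher and 109 (1.06%) lower in the members at an adjusted p below 0.05. With the library as a block, since the sets share libraries, 205 of the same 10261 genes were higher and 192 lower. The sum of Six3- or Isl1-positive cells in replicate 2 is a single cell of 9517 UMIs. Without it, a change made after its size was seen, 43 genes (0.383% of 11231) were higher and 76 (0.677%) lower, so calls that do not outlast its removal are marked below.

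Meis2 (chromosome 2, 115861264 to 116067537), a TALE homeobox factor of the LGE, was at 4048 CPM in replicate 2 and 1987 CPM in replicate 4 in the members. It was at 4.27 and 15.6 CPM in the Lhx6-positive cells. The log2 fold change was 8.20 (SE 1.02, adjusted p = 0.000981). Meis2 had a UMI in 14 of 20 and 23 of 47 members. Meis2 was not particular to the members: the excitatory cells had 1417 and 1441 CPM, and the Six3- or Isl1-positive cells had more than the members, with 5779 CPM in the single cell and 6712 CPM in replicate 4. The whole dorsal LGE list, which holds Sp8 of the rule, summed to 7509 and 2955 CPM in the members and to 9457 and 9694 CPM in the Six3- or Isl1-positive cells. Pax6 (chromosome 2, 105668896 to 105698410), a paired-box factor needed for dopaminergic cells of the olfactory bulb and for cortical progenitors, was at 114 and 92.1 CPM in the members against 0 and 1.65 CPM (log2 fold change 6.86, SE 0.59, adjusted p = 0.000181). The forkhead gene Foxp2 was at 1767 and 527 CPM against 17.1 and 23.0 CPM (5.79, SE 0.76, adjusted p = 0.00128). Sall3, a zinc-finger gene of olfactory bulb interneurons, was at 33.9 and 18.1 CPM against 0 and 0.823 CPM, and its call was lost without the 1-cell sum (adjusted p = 0.00874 and 0.0713). In all, 4 of the 7 tested genes of this list were higher and none was lower, with a median log2 fold change of 5.78 against -0.0045 over all genes tested. Etv1 (591 and 37.9 CPM against 39.3 and 16.4, adjusted p = 0.0746) and Tshz1 (557 and 95.7 CPM against 56.4 and 32.9, adjusted p = 0.0598) did not pass. Both passed with the block, which raised the count to 6 of 7, and 3 of 7 were higher without the 1-cell sum.

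Called genes of the MGE list were lower. The neurexophilin Nxph2 had no UMI in the members of replicate 2 and 2 UMIs in those of replicate 4, against 343 and 282 CPM in the Lhx6-positive cells (log2 fold change -7.12, SE 0.56, adjusted p = 0.000181). The peptide Sst had 1 and 4 UMIs in the members, which is 3.08 and 7.23 CPM, against 619 and 916 CPM (-7.11, SE 0.70, adjusted p = 0.000276). Npy, another interneuron peptide, had no UMI in replicate 2 and 7 UMIs in a single cell of replicate 4. It stood at 226 and 253 CPM in the Lhx6-positive cells (-4.95, SE 0.62, adjusted p = 0.00130). The changes were smaller when the cells were gated and measured with separate UMIs. With gates set from a random 50% of each cell's UMIs and levels read from the UMIs set aside, the log2 fold change was -4.08 for Nxph2, -2.10 for Sst and -1.81 for Npy, all still called. The members so gated included the 2 and 3 cells with Lhx6 UMIs among those set aside, whose part in the smaller values was not tested. Maf and Nxph1 were called lower too (-3.09 and -4.15), but not without the 1-cell sum (adjusted p = 0.0780 and 0.0750). Thus 6 of 10 tested members of the list were lower and none higher, with a median of -3.03, and 4 were lower without the 1-cell sum. With the block, 8 were lower and 1, Zic1, was higher. Nkx2-1 and Lhx8, which mark the MGE itself, had no UMI in any of the 67 cells.

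Sox6 did not follow the MGE list, although it acts downstream of Lhx6 in MGE interneurons. It was at 693 and 2448 CPM in the members against 2608 and 2171 CPM (log2 fold change -0.62, SE 0.70, adjusted p = 0.870). Members with a Sox6 UMI numbered 9 of 20 and 34 of 47, and Adarb2 was present in 9 of these 9 and 28 of these 34. The level was low in replicate 2 and near that of the Lhx6-positive cells in replicate 4.

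The CGE list showed no common direction against the Lhx6-positive cells. Of its 11 tested genes 5 had a fold change above 0 and 6 below, with a median of -0.12, and 2 were called higher (3 with the block, 0 without the 1-cell sum). The chemokine Cxcl14, which later marks superficial CGE interneurons, was at 18.5 and 36.1 CPM in the members and had no UMI in any of the 127 Lhx6-positive cells. Against a floor of 3 UMIs over both libraries it was at least 23.5-fold higher (adjusted p = 0.0385). Synpr, a synaptic vesicle protein gene, was at 326 and 36.1 CPM against 14.5 and 6.58 CPM (3.95, SE 0.80, adjusted p = 0.0220). Both calls were lost without the 1-cell sum (adjusted p = 0.196 and 0.168). Adarb2 itself had a log2 fold change of 5.13 with an SE of 1.36 and did not pass (adjusted p = 0.0953). With the block it did (6.15, SE 1.04, adjusted p = 3.82e-05), and over all 18 fits its adjusted p ran from 1.32e-08 to 0.376. Cck, Calb2 and Npas1 did not pass (adjusted p = 0.391, 0.690 and 0.331). Vip and Sncg, markers of mature CGE types, had no UMI in the members of either library, and the serotonin receptor gene Htr3a had a UMI in 1 of 20 and 7 of 47 members.

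Of the 10 genes with the largest fold change in each direction, several belong to none of these lists. Among the higher ones, the potassium-channel tetramerization-domain gene Kctd16, an auxiliary subunit of GABA-B receptors, was at 86.2 and 210 CPM against 2.56 and 0.823 CPM (log2 fold change 6.49, SE 0.69, adjusted p = 0.000397). The sorting receptor gene Sorcs3 was at 246 and 670 CPM against 6.84 and 8.23 CPM (5.93, SE 0.70, adjusted p = 0.000688). Sorcs3 UMIs were spread over 5 of 20 and 21 of 47 cells, whereas those of Kctd16 came from 3 and 7 cells. The forkhead gene Foxp4 (274 and 63.2 CPM against 0.855 and 3.29) and the heparan sulfate sulfotransferase gene Hs6st3 (643 and 191 CPM against 2.56 and 9.87) were higher as well. Egfem1 was also called higher (10.09, adjusted p = 0.0426) on the strength of replicate 2, with 1013 CPM there and 3.61 CPM in replicate 4. Its UMIs in replicate 2 were in 5 cells, and the call was lost without the 1-cell sum (adjusted p = 0.206).

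On the lower side, Cntnap3, Dgkg, Cacng3, Col19a1, Stxbp6, Thbs1 and Vegfc had no UMI in any member. Cntnap3, a contactin-associated adhesion gene, stood at 274 and 165 CPM in the Lhx6-positive cells, so that it was at least 64.0-fold lower in the members as gated, against the floor of 3 UMIs over both libraries. Dgkg, a diacylglycerol kinase gene, stood at 187 and 226 CPM and was at least 60.6-fold lower. Cacng3, which encodes an AMPA receptor auxiliary subunit, was at least 26.9-fold lower. These 3 passed with and without the 1-cell sum, and the other 4 passed only with it. The bounds are for members gated and measured with the same UMIs. With gates from a random 50% of the UMIs, Cntnap3 was at -3.00, Dgkg at -4.51 and Cacng3 at -3.50 on the log2 scale, all below these bounds in size and all called. Tmem132b was at 3.08 and 1.81 CPM against 235 and 114 CPM (-6.26, SE 0.78, adjusted p = 0.000967), and its log2 fold change was -3.65 with those gates.

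**Figure D2:**
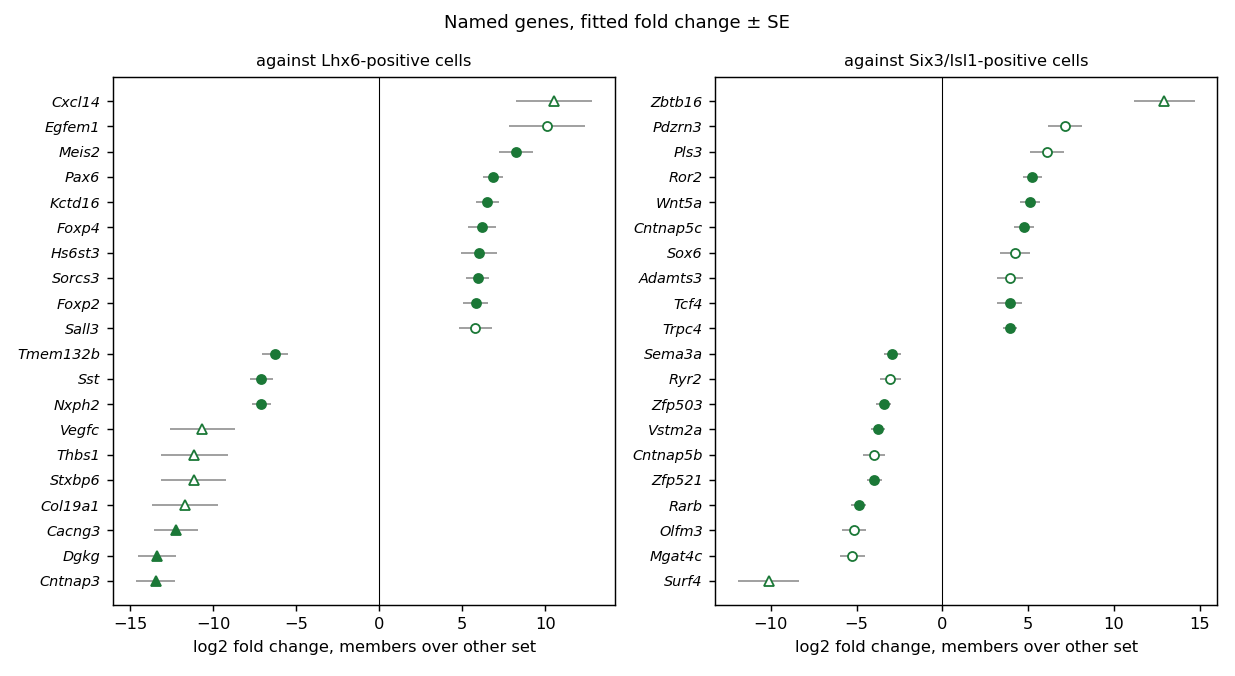
Fitted log2 fold change with its standard error (x axis) of the 10 named genes in each direction (y axis) for members against Lhx6-positive cells (left) and against Six3- or Isl1-positive cells (right). Filled symbols passed also without the 1-cell sum and open ones did not. On the right that leaves 1 sum in the Six3- or Isl1-positive arm. Triangles are genes with no UMI in 1 of the 2 sets, whose fitted value is no bound; Meis2 (8.20) and Pax6 (6.86) lead the filled circles on the left.

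Migration, transmitter and maturation genes were compared by fixed lists. Of 33 tested genes for migration and guidance, Slit1 was higher in the members, and Ackr3 and Sema3a were lower. Ackr3, the scavenging receptor for Cxcl12 in migrating interneurons, was at 27.7 and 12.6 CPM against 294 and 245 CPM (log2 fold change -3.89, SE 0.35, adjusted p = 0.000203, and -2.60 with gates from a random 50% of the UMIs). It had a UMI in 5 of 20 and 4 of 47 members, and in 50 of 51 and 57 of 76 Lhx6-positive cells. At 5000 UMIs per cell these shares of cells with Ackr3 were 5% and 4.55% against 66.0% and 52.1%, with 4.52% and 5.54% in excitatory cells. The members were thus near the excitatory level and the Lhx6-positive cells above it in both libraries. Its partner Cxcr4 was at 15.4 and 12.6 CPM against 68.4 and 31.3 CPM and did not pass (adjusted p = 0.0953), but passed with the block. The repellent semaphorin gene Sema3a was at 33.9 and 36.1 CPM against 183 and 164 CPM (-2.32, SE 0.46, adjusted p = 0.0199). Slit1, a ligand of Robo receptors, was at 89.3 and 110 CPM against 11.1 and 30.4 CPM (2.25, SE 0.41, adjusted p = 0.0133), and its call was lost without the 1-cell sum (adjusted p = 0.0661). The neuregulin receptor Erbb4 was at 10030 and 14492 CPM against 17867 and 17781 CPM (-0.56, SE 0.95, adjusted p = 0.932). The median of the migration list was -0.0023. With the block 5 were higher and 3 lower.

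Of 23 tested genes for transmitters, peptides and receptors, 1 was higher and 4 were lower. The kainate receptor subunit Grik1 had no UMI in the members of replicate 2 and 72.3 CPM in those of replicate 4, against 1212 and 900 CPM (log2 fold change -4.72, SE 0.84, adjusted p = 0.0116). Calb1 was at 12.3 and 9.03 CPM against 50.4 and 217 CPM (-3.73, adjusted p = 0.0342), and Sst and Npy are given above. The nicotinic receptor subunit Chrna7 was at 67.7 and 88.5 CPM against 31.6 and 19.7 CPM (1.61, SE 0.33, adjusted p = 0.0225). The calls for Grik1, Calb1 and Chrna7 were lost without the 1-cell sum, while 2 AMPA receptor subunits gained one there. Gria4 was at 474 and 625 CPM against 3208 and 3316 CPM (adjusted p = 0.0551, and 0.00850 without that sum). Gria1 was at 640 and 258 CPM against 3615 and 3073 CPM (adjusted p = 0.171 and 0.0311). Both were also called lower with the block (adjusted p = 0.0158 for Gria4 and 0.0227 for Gria1), where the list had 1 higher and 6 lower.

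Of 17 tested genes of neuronal maturation, 1 was called. Ccnd2, a cyclin of cycling and just-differentiated neuroblasts, was at 542 and 190 CPM in the members against 3.42 and 13.2 CPM (log2 fold change 5.38, SE 0.62, adjusted p = 0.000627). It had a UMI in 6 of 20 and 9 of 47 members, with up to 78 in a cell. Dcx, which marks migrating neurons, was at 1188 and 946 CPM against 980 and 911 CPM (0.15, adjusted p = 0.975). Of 9 tested genes that write, read or remove DNA methylation, the study's subject, none passed, and none did with the block or without the 1-cell sum. Dnmt1 was at 27.7 and 75.9 CPM in the members against 53.8 and 46.1 CPM in the Lhx6-positive cells (0.14, SE 0.38, adjusted p = 0.962). Dnmt3a was at 151 and 54.2 CPM against 68.4 and 68.3 CPM (0.46, SE 0.36, adjusted p = 0.766). The order of the sets for both genes differed between the libraries. The GABAergic list (10 tested genes) had no call either, with a median of 0.24. The striatal list had 3 of 12 higher, namely Meis2, Foxp2 and Zfp503, and the radial glia list 2 of 7, Pax6 and the glutamate transporter gene Slc1a3, which were 4 and 4 with the block. Without the 1-cell sum they were 2 and 1, since Zfp503 (adjusted p = 0.138) and Slc1a3 (adjusted p = 0.158) lost their calls. The direction of Zfp503, with 1 and 12 UMIs in the members, also turned when the members were limited to those with an Sp8 UMI or with at least 2 marker UMIs (-4.50 in both). No gene was called in the lists for excitatory neurons (9 tested), dividing cells (3), Cajal-Retzius cells (4), thalamus (2), hem (1) or erythroid cells (6), and the preoptic, microglial and endothelial genes were too low to test.

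**Figure D3:**
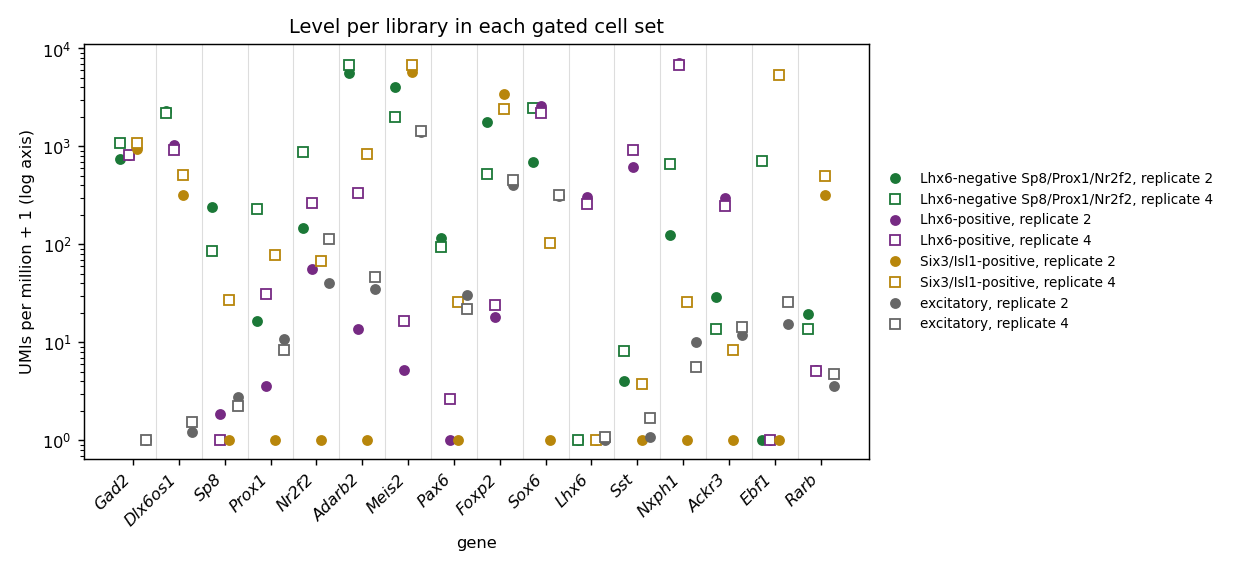
CPM plus 1 on a log axis (y) of 16 genes (x) in each gated set, 1 point per library, filled for replicate 2 and open for replicate 4. Green points are the members. Adarb2 lay above 5000 CPM in both libraries of the members, Meis2, Pax6 and Foxp2 lay above the Lhx6-positive cells (purple), and Sst, Nxph1 and Ackr3 lay below them. The filled ochre points are a single cell.

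The second comparison set the members against the Six3- or Isl1-positive cells, another set of postmitotic GABAergic neurons of the dissected tissue. It rests on replicate 4, with 64 such cells, since replicate 2 had a single one. With that cell left out, its arm is the replicate 4 sum alone, and the spread is taken from the other sets. Calls made or kept in that way have no replicate check in that arm. Of 10261 genes, 45 (0.439%) were higher and 53 (0.517%) lower in the members, 126 and 149 with the block, and 19 (0.169% of 11231) and 30 (0.267%) without the single cell. Both comparisons use the same member sums. Rarb, a retinoic acid receptor of striatal neurons, was at 18.5 and 12.6 CPM in the members against 315 CPM in the single cell and 498 CPM in replicate 4 (log2 fold change -4.88, SE 0.44, adjusted p = 0.000904). The zinc-finger genes Zfp521 (-3.98, SE 0.43, adjusted p = 0.00126) and Zfp503 (-3.43, SE 0.42, adjusted p = 0.00243) were also lower. In all, 3 of 12 tested genes of the striatal list were lower and none higher, with a median of -2.71 against 0.06 over all genes, and a median of -2.43 with genes at 0 set to their bound. With the block 4 were lower, the peptide gene Tac1 being added. Foxp1, at 184 against 1664 CPM in replicate 4, was called neither in the main fit nor with the block. Ebf1, a factor of striatonigral neurons, was at 0 and 717 CPM in the members against 5409 CPM in replicate 4, and its 397 member UMIs lay in 3 cells. Meis2 and Foxp2 did not pass here (adjusted p = 0.858 and 0.754).

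The genes higher than in the Six3- or Isl1-positive cells came from several lists. Zbtb16, a BTB zinc-finger gene, was at 132 and 170 CPM in the members and had no UMI in the 65 other cells, which is at least 56.7-fold higher (adjusted p = 0.00689), but its call was lost without the single cell (adjusted p = 0.0637). The Wnt receptor Ror2 was at 215 and 135 CPM against 0 and 4.62 CPM (log2 fold change 5.24, SE 0.54, adjusted p = 0.00126). Wnt5a, a ligand of Ror2, was at 67.7 and 112 CPM against 0 and 2.77 CPM (5.10, SE 0.58, adjusted p = 0.00187). Without the single cell, which leaves 1 sum in that arm, the log2 fold changes were 5.17 for Ror2 and 5.04 for Wnt5a. The channel gene Trpc4 (3.92), the adhesion gene Cntnap5c (4.76), Dlx1 (2.57) and the bHLH factor Tcf4 (3.93) were also called higher in the main fit. Sox6 (4.23), Dlx2 (2.02) and Pax6 (2.06) passed only with the single cell. The genes Pdzrn3 (7.14), Pls3 (6.09) and Adamts3 (3.94) passed only with the 1-cell sum. Of the lower genes, Vstm2a (6.16 and 10.8 CPM against 315 and 123) and Sema3a (33.9 and 36.1 CPM against 1681 and 191) passed in the main fit. Surf4, Mgat4c, Olfm3, Cntnap5b and Ryr2 passed there too, but only with the 1-cell sum. In the Lhx6-positive cells Ror2 was at 172 and 151 CPM, near the members, and Wnt5a at 5.13 and 9.05 CPM.

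By list, 2 of 10 tested GABAergic genes were higher than in the Six3- or Isl1-positive cells, 1 of 11 CGE genes (6 with the block), 1 of 7 dorsal LGE genes (2), 1 of 10 MGE genes (5), 1 of 7 radial glia genes (2) and 1 of 17 maturation genes (3). The GABAergic count was 3 with the block, under which 126 of all 10261 genes tested were higher. Without the single cell, 1 GABAergic gene and 2 maturation genes were higher, and the CGE, dorsal LGE, MGE and radial glia lists had no call. Of 33 migration genes, Sema3a was lower and none was higher, and with the block 4 were higher and 2 lower. Without the single cell, which leaves 1 sum in that arm, the log2 fold change of Sema3a was -2.47. Erbb4 was at 0 CPM in the single cell and at 818 CPM in the Six3- or Isl1-positive cells of replicate 4. It did not pass in the main fit (adjusted p = 0.0839) and passed with the block (adjusted p = 0.00202). None of 23 transmitter genes (3 with the block) and none of 9 DNA methylation genes passed. No Cajal-Retzius gene passed in the main fit, and 1 of 4, Reln, was higher with the block.

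The members also differed among themselves, by library and by which marker they carried. Genes of the following paragraphs were chosen after their values were seen, and a test of Sp8-bearing against other members was not made, because replicate 2 had 3 members without Sp8. In replicate 2, the 11 cells with Sp8 alone had Meis2 in all 11, Etv1 in 9, Tshz1 in 9, Pax6 in 8 and Foxp2 in 7. Nr2f1, the paralogue of Nr2f2, had a UMI in 1 of these 11, Sox6 in 2 and Nxph1 in none. Their Adarb2 was at 3031 CPM, with a UMI in 10 of 11. The 6 cells of the same library with Sp8 beside Prox1 or Nr2f2 had Adarb2 at 11159 CPM in 6 of 6, Nr2f1 in 4, Sox6 in 5, Meis2 in 2 and Foxp2 in none. The former cells were deeper, with a median of 20164 UMIs against 14388.5, and the 3 cells without Sp8 had 7581. At 5000 UMIs per cell the shares were 100% and 33.3% for Meis2, 54.5% and 0% for Foxp2, 0% and 66.7% for Nr2f1 and 18.2% and 66.7% for Sox6. In the Lhx6-positive cells of this library, which had little Meis2 and Foxp2, the share was 2% for each.

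In replicate 4, the 19 cells with Sp8 beside Prox1 or Nr2f2 had Adarb2 at 12337 CPM in 18 of 19. Nr2f1 and Sox6 each had a UMI in 18 of 19, and Npas3 in all 19. Meis2 was present in 12 of the 19, Pax6 in 8 and Etv1 in 2. The 27 cells without an Sp8 UMI, admitted by Prox1 or Nr2f2, had Adarb2 at 2655 CPM in 17 of 27. Their Nxph1 was at 1178 CPM in 10 of 27 cells, against 4.23 CPM in 1 of 19. Median UMIs per cell were 11192 and 11063 in these groups of replicate 4. The AMPA receptor subunit Gria1 had a UMI in 17 of the 27 and 2 of the 19, the ephrin Efna5 in 16 and 1, and the receptor Ephb1 in 13 and 1. Zeb2, a factor of migrating cortical interneurons, was at 623 CPM in 12 of 27 and at 2081 CPM in 16 of 19. These values come from 1 library and have no replicate check.

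**Figure D4:**
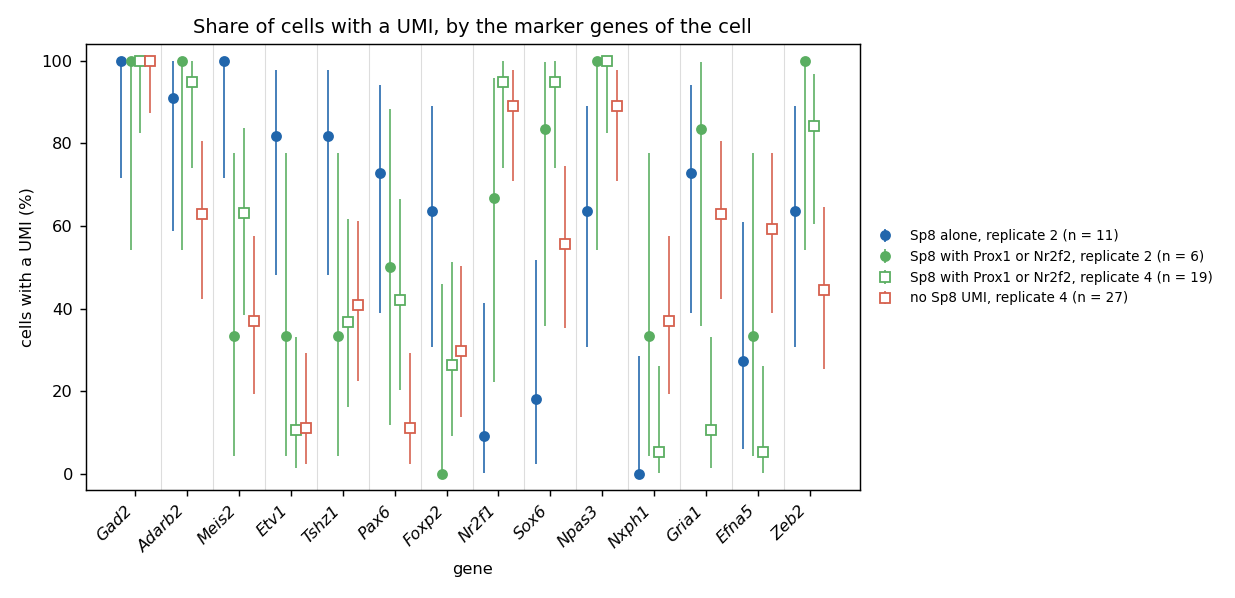
Percent of cells with at least 1 UMI (y axis) of 14 genes (x axis) in members grouped by their marker genes, with exact 95% binomial intervals for counting error. Filled symbols are replicate 2 and open ones replicate 4. Meis2 was found in all 11 cells with Sp8 alone, and Nr2f1 in 1 of them but in 18 of the 19 cells of replicate 4 with Sp8 beside Prox1 or Nr2f2.

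Pairs of genes in the same cell are given as a description. Nr2f2 is a gene of the rule, and 11 of the members of replicate 2 had been grouped above for carrying Sp8 without it, so its pairs in part restate that grouping. In replicate 2, none of the 14 members with Meis2 had Nr2f2, and the 6 members without Meis2 all had it. In replicate 4 the 2 genes met in 19 of 47 members, so the separation was not found there. Etv1 lay within the Meis2-bearing cells in replicate 2 (12 of 12) and less so in replicate 4 (2 of 5). Nr2f1 accompanied Nr2f2 in 6 of 6 and 39 of 41 cells. Adarb2 was found in 13 of 14 and 20 of 23 Meis2-bearing cells. Of the 11 members of replicate 4 with Nxph1, 5 had Adarb2 and 8 had Sox6.

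The libraries also differed in the sums over all members, and the part of the marker makeup in this was not tested. Foxp2 was at 1767 CPM in replicate 2 and 527 in replicate 4, and Npas3 at 1118 and 3520. Nr2f1 was at 154 and 578 CPM, and Reln, the glycoprotein of Cajal-Retzius cells and of many CGE interneurons, at 650 and 135. Reln UMIs came from 8 of 20 and 13 of 47 cells, with 157 in 1 cell of replicate 2. The count of higher and lower genes against Lhx6-positive cells was 233 when only the members with an Sp8 UMI, with or without the other markers, were summed and 227 with members bearing Prox1 or Nr2f2, against 212 for all members.

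Markers of other cell types ranged from no UMI to levels above those of the Lhx6-positive cells. The radial glia list summed to 440 and 603 CPM in the members, above the Lhx6-positive cells (252 and 313 CPM) and the excitatory cells (404 and 394 CPM). The striatal list, which shares Meis2 and Foxp2 with the dorsal LGE list and holds Six3 and Isl1 of the rule, summed to 6800 and 4353 CPM, against 786 and 769 CPM in the Lhx6-positive and 15131 and 20234 CPM in the Six3- or Isl1-positive cells. Markers of dividing cells, 2 of which the rule limits, summed to 105 and 114 CPM. The preoptic list (Hmx2, Hmx3, Nkx6-2, Dbx1) had no UMI in either library. The excitatory list, 2 of whose genes (Neurod2 and Neurod6) the rule limits, summed to 15.4 and 34.3 CPM, with 8 and 5 of its 11 genes at 0. Microglial markers gave 1 UMI in each library, and endothelial, mural and meningeal markers 1 and 4. Thalamic and diencephalic markers gave 0 and 3 UMIs, all of Lhx2. Hemoglobin and other erythroid genes summed to 123 and 482 CPM. Hem and choroid plexus genes summed to 49.3 and 16.3 CPM. The Cajal-Retzius list summed to 690 and 143 CPM, of which Reln made up 650 and 135 CPM, and Trp73, Lhx1 and Lhx5 had no UMI. The part of these transcripts in the differences above was not tested.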

How the data were processed

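The authors dissociated E14.5 dorsal telencephalon with papain, made 10x Genomics 3′ v3.1 libraries and, per the submitters' processing notes, ran Cell Ranger 7.0.0 with mm10. The authors deposited unnormalised UMI counts for 32285 genes in each barcode. Whether intronic reads were counted and whether strand was used are not given in the sources used here, so overlapping genes such as Dlx6os1 and Dlx6 may share reads. Gene positions are from RefSeq's GRCm38 table. The tables held 1712 and 2589 barcodes with 40267872 and 49422007 UMIs. After removal of barcodes under 1000 genes or above 10% mitochondrial UMIs, 1211 and 1971 were left, with medians of 30872 and 23007 UMIs. Doublets were called with Scrublet in scanpy 1.11.5 (0.991% and 2.44%) and left in.

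The members and the 19 gene lists were chosen with earlier results of these data known. UMIs were summed per gate and library into 8 sums and fitted with edgeR 4.0.16 (R 4.3.3, TMM, filterByExpr, Benjamini-Hochberg over all genes tested). The 12 genes of the rule stayed in library sizes and out of the test. Each arm has 2 sums, from separate libraries whose embryos are not described, so p-values measure the spread between these sums. The fit was tested on simulated counts. Same-numbered sums come from the same library, which pairs them. Their deviations from the gate means correlated at 0.107 (members and Lhx6-positive), 0.0166 (members and Six3- or Isl1-positive) and 0.177 (members and excitatory) across 10261 genes, and the fit with library as a block is given beside the list counts it moves and beside genes described for a call it changed.

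Named genes were the 10 with the largest fold change in each direction among called genes with the same sign in both libraries and at least 20 CPM in the higher set, without predicted gene models, and up to 6 genes of each list. The values of 1 gene of the MGE list are not reported here. Shares of cells were also computed after thinning to 5000 UMIs per cell, with cells below 5000 UMIs left out. Intervals and floors (3 UMIs) cover counting error only.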

Additional observations from a re-analysis of the deposited data

Results flagged for a closer look

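Barcodes left out by the filter on genes and mitochondrial UMIs were searched with the remainder of the rule. In replicate 4, 8 of 618 such barcodes met it (1.29%), more than the 3 that a count of 0 allows, which shows only that such barcodes were among those left out. All 8 had been left out for a mitochondrial share above 10%. They had a median of 5746 UMIs, and Adarb2 was present in 8 of 8 at 5213 CPM. The share was below the 2.38% among retained cells, and 5 left-out barcodes each met the Lhx6-positive and the Six3- or Isl1-positive gate. In replicate 2, 1 of 501 left-out barcodes met the rule.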

How the results depend on the processing

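Against the Lhx6-positive cells 212 genes were called. The count was 547 with all genes of at least 1 UMI, 397 with the replicate block, 119 without the 1-cell Six3 or Isl1 sum, 110 with cells of at least 10000 UMIs, which also removes that sum, 88 by DESeq2's Wald test (version 1.42.0) and 73 with the 2 compared gates alone in the fit. Against the Six3- or Isl1-positive cells 98 genes were called, and the same settings gave 497, 275, 49, 38, 44 and 54. There, thinning gave 168, gates from a random 50% of the UMIs 179, and members with Prox1 or Nr2f2 177. Leaving out the member sum of replicate 2 or 4, with the lone sum assumed to vary like the others, gave 250 and 317 in the first comparison and 222 and 219 in the second. The share of members in replicate 4 was 1.67% among cells of at least 10000 UMIs against 2.38%, and its other alternatives, and all of those in replicate 2, stayed within the counting interval. The causes were not tested.

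Of 991 gene values under these fits, 851 kept direction and side of the threshold, 128 lost the call, 10 gained it and 2 turned direction. Both were Zfp503 against the Lhx6-positive cells, at -4.50 with at least 2 marker UMIs and -4.50 with Sp8-bearing members. All 18 fits called 14 of 35 genes in the first comparison (Meis2, Pax6, Foxp2, Kctd16, Sorcs3, Ccnd2, Ackr3, Sst, Npy, Nxph2, Cntnap3, Dgkg, Cacng3, Tmem132b) and 7 of 24 in the second (Rarb, Zfp521, Sema3a, Vstm2a, Ror2, Trpc4, Cntnap5c). With 1 library left out none of these 35 and 24 genes turned direction, and no test was possible. For the genes named for the largest fold changes this was fixed in advance, since the same sign in both libraries was required of them. The comparison of members with and without Sp8 had too few cells for a test under each alternative listed for it, and none was run. Gates from a random 50% of the UMIs kept the direction of each gene so tested but moved fold sizes, as given in the report for Sst, Npy, Nxph2, Cntnap3, Dgkg, Cacng3, Tmem132b and Ackr3. The number of cells limits the low genes. By the floor of 3 counts, a gene with no UMI in the 20 members of replicate 2 may have a UMI in up to 15% of such cells.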
